A study of Mus musculus with 4 samples.

Results

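The genes described here encode the nuclear subunits of the respiratory chain and of ATP synthase, together with Cox7a2l, an assembly factor of supercomplexes that the same naming rule takes in. Gene symbols were matched to the usual roots of these families (Nduf followed by a, b, c, s or v and a number, Sdha to Sdhd, Uqcr, Cyc1, Cox4 to Cox8 and Atp5), names of pseudogenes and related sequences being left out, which removed 1 name. The rule found 85 of the 22376 genes listed, of which 35 belonged to complex I, 4 to complex II, 9 to complex III, 20 to complex IV (with Ndufa4 and Ndufa4l2, now assigned there) and 17 to complex V. Spatial transcriptomes (10x Visium) were taken from 10 µm brain sections of 8 male mice aged 3 to 4 months that express Cre recombinase from the dopamine transporter locus. GqCNO mice (801, 804 and 781) received a Cre-dependent virus for the excitatory DREADD hM3Dq fused to mCherry in the midbrain and then drank clozapine-N-oxide (CNO) at 300 mg/L in 2% sucrose for a week. GqVeh mice (802, 784 and 785) received the same virus and the sucrose vehicle, and CNO alone mice (C2W2 and C1W7) were not injected and drank CNO. All of the mice were singly housed with running wheels. The 5 GqVeh and CNO alone mice are called controls below. Discs, the capture spots of the slide, were assigned to the substantia nigra (SN), ventral tegmental area (VTA) and thalamus on midbrain sections, and to the caudate putamen (CP), lateral septal complex (LSX) and white matter on striatal sections.

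Oxidative phosphorylation is carried out by 5 multi-subunit complexes of the inner mitochondrial membrane. Complexes I and II pass electrons from NADH and succinate to ubiquinone, complex III passes them to cytochrome c, complex IV reduces oxygen, and complex V, the ATP synthase, uses the proton gradient that complexes I, III and IV build. Most subunits are encoded in the nucleus and imported, while the core of every complex except complex II also needs subunits encoded in mitochondrial DNA. Dopamine neurons of the SN are known for long, highly branched axons and for their sensitivity to complex I inhibitors.

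For each mouse and region the files gave an average per gene, from which whole UMI counts (unique molecules) could be recovered, and levels are given below as UMIs per 10000 UMIs of the column. Depth differed widely between regions. The SN columns held 7779 to 71906 UMIs from 1 to 7 discs, the VTA 25808 to 350222 UMIs from 2 to 49 discs and the thalamus 80837 to 444790 UMIs from 8 to 39 discs, whereas the CP columns held 4300381 to 7977003 UMIs from 357 to 560 discs, the LSX 80525 to 1354667 and the white matter 119422 to 405313. Mouse 801 had no thalamus column. In the SN of mouse 801, 3 UMIs correspond to a level of 3.86, so that a member listed at 0 there was not detectable at this depth. All 12 dopamine neuron markers tested were higher in the VTA than in the thalamus. All 10 oligodendrocyte markers were lower in the CP than in white matter. Per the methods, SN and VTA discs were chosen partly by expression of Th, Slc6a3 and Slc18a2, and white matter discs by Mbp. As these genes are among the markers, the differences are not an independent check of the regions. As a disc holds several cells, fewer cells of a type and less RNA per cell cannot be told apart.

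The 2 pairs of arrays were not alike for these genes. The first pair (a midbrain and a striatal array) held mice 801, 804, 802 and C2W2, and the second held 781, 784, 785 and C1W7. In the CP, the deepest region, the summed level of the members was 331 and 324 for GqCNO mice 801 and 804, 296 for GqVeh mouse 802 and 299.8 for CNO alone mouse C2W2, all on the first pair. On the second pair the sums were 384 for GqCNO mouse 781, 423 and 386 for GqVeh mice 784 and 785 and 418 for CNO alone mouse C1W7. The lowest mouse of the second pair was therefore above the highest mouse of the first, whatever its treatment. With treatment group in the fit, 72 of 80 members tested in the CP were higher on the second pair (limma, adjusted p under 0.05) and none was lower, while 9.07% of all genes tested were called higher. The median member difference was 0.36 on the log2 scale, against -0.06 over all genes. The called members included Atp5mpl, a small ATP synthase subunit (log2 difference 0.59 ± 0.07 SE, adjusted p 8.2e-06), Uqcr11 of complex III (0.56 ± 0.08, adjusted p 1.7e-05) and Cox5b, a complex IV subunit (0.52 ± 0.08, adjusted p 3.3e-05). All 17 ATP synthase members and all 9 complex III members were called.

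The exceptions in the CP were few. Sdha, the flavoprotein of succinate dehydrogenase, differed by 0.07 ± 0.07 (adjusted p 0.50), Ndufs1, the largest complex I core subunit, by 0.09 ± 0.07 (adjusted p 0.38), Ndufv1, the NADH-binding subunit, by 0.15 ± 0.08 (adjusted p 0.15) and Ndufa10 by -0.08 ± 0.07 (adjusted p 0.46). The other 4 that were not called were Cox4i2, Cox6a2, Cox7a2l and Ndufa4l2.

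The same direction was seen elsewhere, although fewer members passed the test. In the thalamus 75 of 77 members were higher on the second pair, with a median of 0.44 and 5 called (Cox6a1, Cox5b, Ndufa1, Ndufa7 and Ndufv3, each with adjusted p 0.036), beside 0.234% of all genes. In the white matter 78 of 80 members were higher with a median of 0.43, in the LSX 74 of 77 with 0.21, in the VTA 69 of 77 with 0.23 and in the SN 47 of 78 with 0.10, and no member was called in these 4 regions. At an unadjusted p under 0.05, 43, 20, 10 and 2 members were higher in the white matter, LSX, VTA and SN, and none was lower, beside 3.04%, 1.79%, 1.66% and 0.632% of all genes higher at that threshold. After adjustment the share of all genes called higher was 0.0367% in white matter and 0% in the other regions. Cytosolic ribosomal proteins, another group of abundant transcripts, were higher on the second pair for 77 of 80 genes in the CP with 29 called, and neuron markers for 4 of 15 with 2 called higher and 5 called lower. The column names also mark the first-pair mice C2 and the second-pair mice C1, a grouping that the labels do not explain. Animal, that grouping and array cannot be told apart here, since each mouse was on 1 array pair only. Of the GqCNO mice 2 of 3 were on the first pair, but of the GqVeh mice 1 of 3. Comparisons of GqCNO mice with all controls are therefore given below with their values within each pair.

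**Figure D1:**
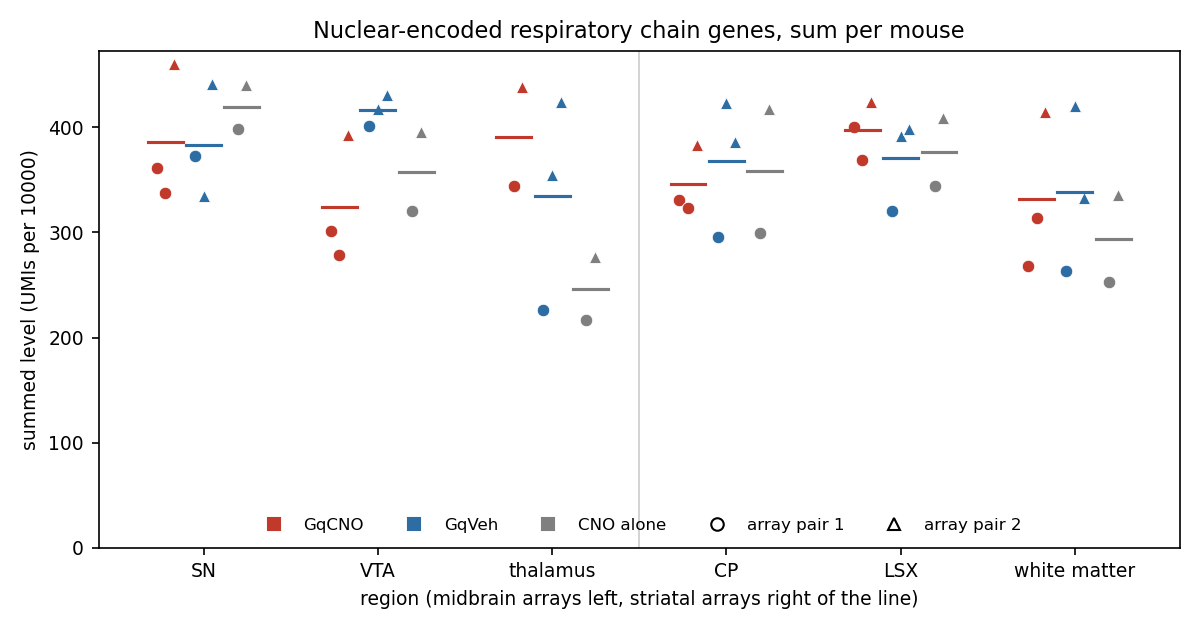
Summed level of the nuclear-encoded respiratory chain genes (y axis, UMIs per 10000) in each region (x axis). Each symbol is a mouse, coloured by group and shaped by array pair, and the bars are group means; in the CP the 4 triangles of the second array pair (384 to 423) lie above the 4 circles of the first (296 to 331).

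Whether chronic activation of dopamine neurons altered these transcripts was addressed by comparing GqCNO mice with the controls in each region. In the VTA most members were lower in GqCNO mice, without any passing the test. Against CNO alone mice, and within the second array pair, the member median lay near that of all genes. The summed level was 302, 279 and 393 in GqCNO mice 801, 804 and 781, against 401, 418 and 431 in the GqVeh mice and 320.1 and 396 in the CNO alone mice. GqCNO mice 801 and 804 lay below every control, whereas 781 lay above C2W2. Of 77 members tested, 66 had a negative difference, with a median of -0.24 on the log2 scale against -0.06 over all genes, but none was called, beside 1.52% of all genes. At an unadjusted p under 0.05, 13 members (16.9%) were lower and none higher, beside 5.99% of all genes lower and 4.82% higher, and edgeR called none. Within the first array pair the median was -0.23 against -0.04 over all genes, with 62 of 77 members negative. Within the second it was -0.11, close to the -0.10 over all genes, with 45 of 77 negative.

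ATP synthase subunits were among the VTA members with the smallest p. Atp5b, the catalytic beta subunit, was at 10.6, 7.71 and 10.7 in mice 801, 804 and 781. The GqVeh mice had 12.8, 14.6 and 16.7 and the CNO alone mice 12.8 and 13.8. The Atp5b difference was -0.53 ± 0.20 (limma, adjusted p 0.28). Atp5c1, the central stalk gamma subunit, was at 2.46, 2.49 and 4.16 in the GqCNO mice and 3.84 to 5.86 in the controls (-0.64 ± 0.23, adjusted p 0.25), with 781 inside the control range. Atp5g1, which encodes the membrane rotor's c subunit, averaged 4.41 ± 0.60 (SD, n = 3) in GqCNO mice and 6.76 ± 1.22 (n = 5) in controls in the limma comparison (adjusted p 0.32). By complex, 16 of 17 ATP synthase members, 11 of 12 complex IV members, 9 of 9 complex III members, 4 of 4 complex II members and 26 of 35 complex I members had negative values. The positive members with the smallest p were Cox7a2l, a supercomplex factor rather than a structural subunit (0.37 ± 0.23, adjusted p 0.58), Ndufs4 (0.27 ± 0.30), Atp5g2 (0.14 ± 0.23) and Ndufb5 (0.10 ± 0.24).

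Cell type markers moved in the VTA over the same mice. Dopamine neuron markers summed to 17.7 to 48.0 in the GqCNO mice and 64.4 to 98.7 in the controls (all 13 detected, 8 of 12 tested called lower). Neuron markers summed to 55.7 to 83.7 against 103 to 128 (4 of 15 called lower), and microglia markers to 35.3 to 92.9 against 4.53 to 26.8 (7 of 11 called higher). Of the neighbouring pathways, 12 mobile carriers and ADP/ATP exchangers had a median of -0.34, 17 citric acid cycle genes -0.22 and 16 glycolysis genes -0.18, none of them called, while 79 of 80 ribosomal protein genes had positive values with a median of 0.45. The part of cell composition in the VTA values was not tested.

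In the SN, where 3 of the 8 columns held under 15000 UMIs, the members were centred near the rest of the genes. The summed level was 361, 337 and 461 in the GqCNO mice, 373, 335 and 441 in the GqVeh mice and 398 and 440.3 in the CNO alone mice, and the groups overlapped. Of 78 members 45 were negative with a median of -0.08, equal to the -0.08 over all genes, and none was called, beside 0.648% of all genes. Unadjusted p values under 0.05 were found for 4 members (5.13%), all lower in GqCNO, beside 4.39% of all genes lower, and edgeR called none. The smallest was for Ndufa5, an accessory subunit of the complex I matrix arm, which was at 0, 2.74 and 2.04 in the GqCNO mice and 1.72 to 5.09 in the controls (-1.34 ± 0.47, adjusted p 0.30). Ndufc1 was at 1.29, 1.89 and 2.72 in the GqCNO mice and 4.04 to 5.15 in the controls (-1.09 ± 0.44, adjusted p 0.46). In mice 801 and 781, with 1 disc each, 3 UMIs correspond to 3.86 and 2.04, so their values rest on few UMIs. Ndufb11 (-1.03 ± 0.47, adjusted p 0.57) and Uqcrfs1, the Rieske iron-sulphur protein (-1.01 ± 0.47, adjusted p 0.60), followed, and both were listed at 0 in mouse 801. Of the members with positive values, those with the smallest p were Sdhb, Cox6b1, Cox6a1 and Ndufs7, at 0.35 to 0.57 with adjusted p 0.74 to 0.84. Under TMM scaling 72 of 78 members were negative, with a median of -0.35 against -0.24 over all genes. Within the first array pair the SN median was -0.16 (52 of 78 members negative) and within the second it was 0.18 (50 of 78 positive), so no direction can be given. Dopamine neuron markers summed to 19.3 to 75.4 in GqCNO mice and 69.3 to 119.7 in controls, with overlap (4 of 13 called lower). Neuron markers summed to 41.1 to 91.7 against 59.3 to 129.5 (2 of 15 called lower), and microglia markers to 34.7 to 67.3 against 3.44 to 44.7 (2 of 11 called higher). The part of these cell types in the SN values was not tested. The mitochondria-encoded subunits summed to 855 to 977 in the SN of GqCNO mice and 1090 to 1198 in controls, with 12 of 13 negative and none called.

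In the thalamus, which lies outside the injected nuclei, the direction was the opposite. The summed level was 344 in GqCNO 804 and 438 in GqCNO 781, 226, 355 and 424 in the GqVeh mice, and 217 and 277 in the CNO alone mice. Here 75 of 77 members had positive differences with a median of 0.37, while the median over all genes was -0.01, and none was called, as for all genes (0%). At an unadjusted p under 0.05, 5 members (6.49%) were higher and none lower, beside 1.59% of all genes higher, and edgeR called none. The smallest p values were for Ndufa3 (0.57 ± 0.24), Sdhc, a membrane anchor of complex II (0.50 ± 0.21), Sdhb, its iron-sulphur subunit (0.65 ± 0.28), and Ndufa10 (0.48 ± 0.22), each with limma's adjusted p at 0.998. Sdhb was at 2.02 and 3.04 in the GqCNO mice, 1.19, 1.82 and 2.57 in the GqVeh mice, and 0.495 and 1.60 in the CNO alone mice, with overlap. Atp5g2 and Ndufb6 were the only members with negative values (-0.13 and -0.01). The median was 0.56 within the first array pair, with 1 GqCNO mouse, and 0.29 within the second, also with 1, each with 75 of 77 members positive. Neither the ribosomal genes (76 of 80 positive, median 0.19) nor the mitochondria-encoded subunits (1 of 13 positive, median -0.19) included a called gene.

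In the striatal regions the differences between groups were small. The CP median was -0.07 with 68 of 80 members negative, but it was 0.13 within the first array pair (79 of 80 positive), -0.10 within the second and above 0 with the array pair as a block, so no direction can be given. None was called or had an unadjusted p under 0.05, the smallest p being for Cox7a2l at 0.20 ± 0.10 (adjusted p 0.999). In the LSX 54 of 77 members were positive with a median of 0.08, led by Ndufb7 (0.38 ± 0.15) and Ndufb4 (0.33 ± 0.15), complex I membrane arm subunits with limma's adjusted p at 0.91, the 2 members with an unadjusted p under 0.05 (2.6%, beside 0.852% of all genes higher). Within the array pairs the LSX median was 0.21 (65 of 77 positive) and 0.09 (60 of 77). In the white matter 50 of 80 were positive with a median of 0.03, none with an unadjusted p under 0.05. The white matter median was 0.12 (60 of 80 positive) and 0.18 (71 of 80) within the array pairs but ran from -0.13 to 0.17 when a mouse was left out, so no direction can be given. No member was called in either region, beside 0% and 0.0367% of all genes, and edgeR called none in the 3 striatal regions.

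Splitting the controls gave no calls either. Against GqVeh alone, the VTA median was -0.34 with 67 of 77 members negative and 16 (20.8%) lower at an unadjusted p, beside 5.72% of all genes, and the thalamus median was 0.22. More GqVeh than GqCNO mice were on the second array pair, where 69 of 77 VTA members were higher (median 0.23). Values within each pair are not given for these splits. Against CNO alone, the VTA median was -0.12 beside -0.07 over all genes, with 55 of 77 members negative. None of them was lower at an unadjusted p, beside 2.76% of all genes. The thalamus median against CNO alone was 0.59 with 27 members (35.1%) higher at an unadjusted p, beside 5.08% of all genes. GqVeh and CNO alone mice, neither of which combined the receptor with its ligand, differed from each other by a median of 0.18 in the VTA, -0.17 in the SN, 0.36 in the thalamus, 0.18 in white matter, 0.04 in the CP and -0.02 in the LSX. At an unadjusted p under 0.05, at most 6 members passed in any other of these comparisons. The 6 were higher in the thalamus for GqVeh against CNO alone (7.79%, beside 4.41% of all genes). In the LSX 4 were higher against GqVeh (5.19%, beside 1.56%). In the SN 3 were lower against GqVeh and 3 against CNO alone (3.85% each, beside 3.26% and 3.71%). No other of these comparisons had more than 2. No member was called in any of these 18 comparisons with limma or edgeR, among which the share of all genes called was 0.194%, 0.615% and 0.0648% in the SN, 0.475%, 1.12% and 0.0792% in the VTA, 0.0462% in the CP against GqVeh, 0.0367% in white matter against GqVeh and 0% in the others.

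The contrast between the VTA and the thalamus was tested directly, with the region difference taken within each mouse. The difference in response (VTA minus thalamus, GqCNO against controls) was negative for 75 of 77 members with a median of -0.52, against -0.09 over all genes. At an unadjusted p under 0.05, 28 members (36.4%) were lower and none higher, beside 6.93% of all genes lower and 3.51% higher. None passed after adjustment, beside 0.785% of all genes. Among the nearest were Atp5g1 (-1.25 ± 0.32, limma adjusted p 0.063), Uqcrc2, a complex III core protein (-1.23 ± 0.35, adjusted p 0.10), Atp5g3 (-1.09 ± 0.31, adjusted p 0.11) and Atp5b (-1.06 ± 0.31, adjusted p 0.11). With the array pair as a block the median was -0.54 and still none was called. Without GqVeh mouse 785, whose VTA column rested on 2 discs, 10 members (13%) were called lower, beside 0.999% of all genes lower and 0.891% higher, among them Atp5g1 (adjusted p 0.0089), Uqcrc2, Cox6b1, Atp5md, Atp5g3, Cox5a, Atp5c1, Ndufa4 and Atp5b. Of the omissions of a single mouse, that of 785 was the only one with a called member. Only 2 GqCNO mice entered this comparison. Between the SN and the VTA the difference in response had a median of 0.19, with 52 of 78 members positive, 1 higher and 3 lower at an unadjusted p (beside 2.24% and 3.16% of all genes) and none called (0% of all genes).

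**Figure D2:**
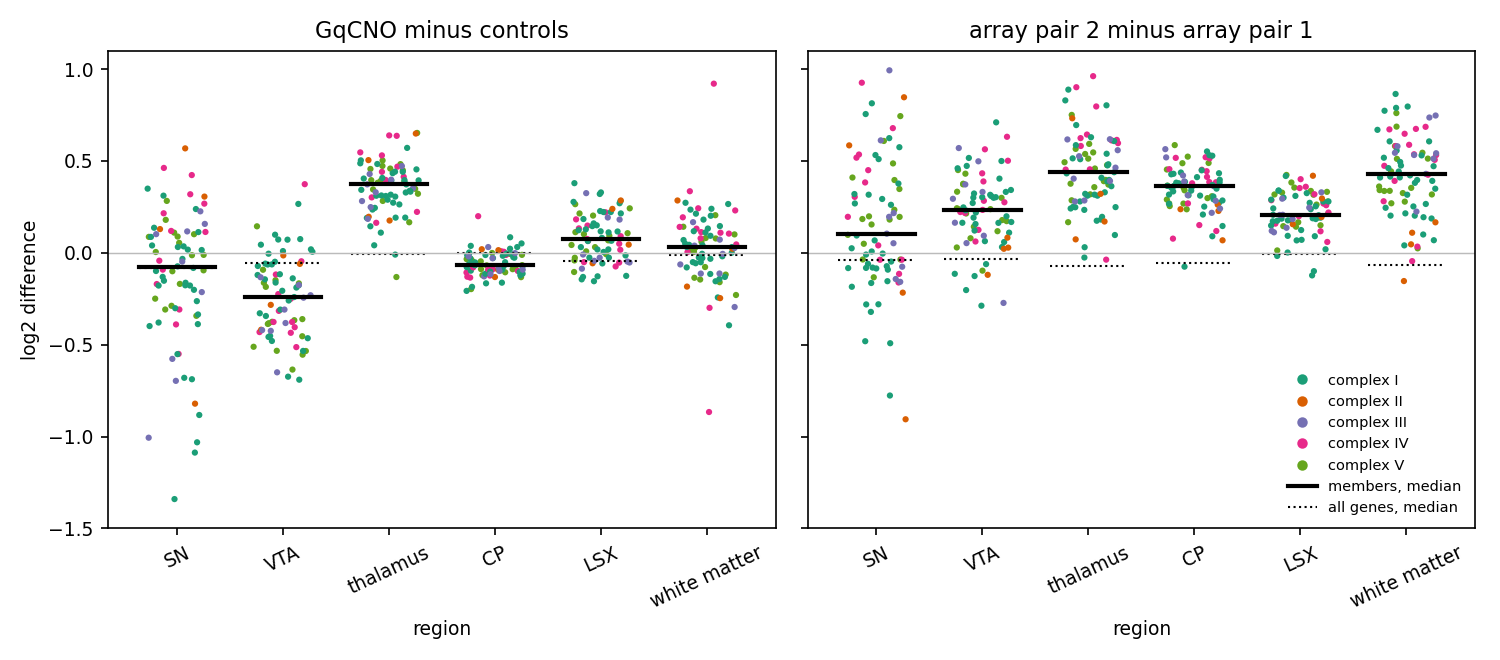
Log2 difference of each member (points, coloured by complex) in each region for GqCNO against controls (left) and for the second against the first array pair (right). Thick bars are member medians and dotted bars the medians of all genes tested; on the left the VTA and thalamus medians are -0.24 and 0.37, and on the right every member median is above 0.

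Regional differences in gene levels were then taken within the 5 control mice, so that each comparison was made between columns of the same mouse and array. In the midbrain the thalamus was the low region. The mean of 74 of 84 members was lowest there, and highest in the SN for 42 and in the VTA for 33. Relative to the thalamus, 34 of 77 members were higher in the VTA and none was lower, beside 12.9% of all genes higher and 13.9% lower. In the SN 12 of 78 were higher and none lower, beside 5.45% and 10.0% of all genes. The member medians were 0.45 and 0.46, against 0.00 and -0.05 over all genes. The SN and VTA themselves did not differ for any of 78 members (median 0.00, 39 positive, with 1 higher and 2 lower at an unadjusted p, and none called by edgeR), beside 0.0162% and 0.0647% of all genes.

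Sdhb showed the largest VTA difference, at 5.39, 3.19, 4.26, 2.37 and 3.31 in the VTA of mice 802, 784, 785, C2W2 and C1W7 against 1.19, 1.82, 2.57, 0.495 and 1.60 in the thalamus of the same mice, higher in each (log2 difference 1.1 ± 0.19, adjusted p 2.2e-04 in limma). Atp5g1 was at 5.86, 7.02, 8.52, 5.39 and 7.0 in the VTA and 1.89, 3.40, 6.07, 2.10 and 3.65 in the thalamus (0.97 ± 0.17, adjusted p 2.2e-04). Both were also called in the SN, where they differed from the thalamus by 0.93 ± 0.26 and 0.99 ± 0.23. Next in the VTA came Ndufc1 (0.85 ± 0.16) and Ndufa8 (0.81 ± 0.17) of complex I, and Atp5j2 (0.74 ± 0.16) and Atp5o (0.74 ± 0.17) of ATP synthase. In the SN the others among the 6 largest were Ndufa9 (0.99 ± 0.27), Ndufc1 (0.95 ± 0.25), Cyc1, the haem-bearing cytochrome c1 (0.84 ± 0.25), and Uqcr11 (0.81 ± 0.24). Of the 12 members called in the SN, 9 (75%) were also called in the VTA, which is 26.5% of the 34 called there, and both comparisons share the thalamus columns. By complex, 17 of 35 complex I, 1 of 4 complex II, 6 of 9 complex III, 3 of 12 complex IV and 7 of 17 complex V members were higher in the VTA. Ndufv1, Ndufs1, Cox4i1, Atp5a1 and Atp5b were not called in either comparison. The counts depended on scaling, since with TMM factors 5 members were called in the VTA and 0 in the SN, beside 8.01% and 2.2% of all genes called higher. The median member difference minus that of all genes was 0.44 for the VTA and 0.51 for the SN under the main scaling and 0.39 and 0.33 under TMM. Leaving out 1 control mouse gave 14 members in the VTA without 802, 21 without C2W2 or C1W7 and 22 without 784, and in the SN 38 without 784, 7 without C1W7, 6 without 802 and 5 without C2W2.

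Around the same discs, ribosomal protein genes were higher in the VTA than in the thalamus for 63 of 80, glycolysis genes for 8 of 16 and citric acid cycle genes for 3 of 16, whereas 6 of 13 mitochondria-encoded subunits were lower (median -0.55). Assembly factors, which build the complexes but do not remain in them, were called higher for 2 and lower for 1 of 31 tested. Neuron markers were mixed, with 4 of 15 higher and 3 lower. Discs of the SN and VTA were selected for tyrosine hydroxylase positive cell bodies and discs of the thalamus were not, so that cell body content and region cannot be told apart.

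**Figure D3:**
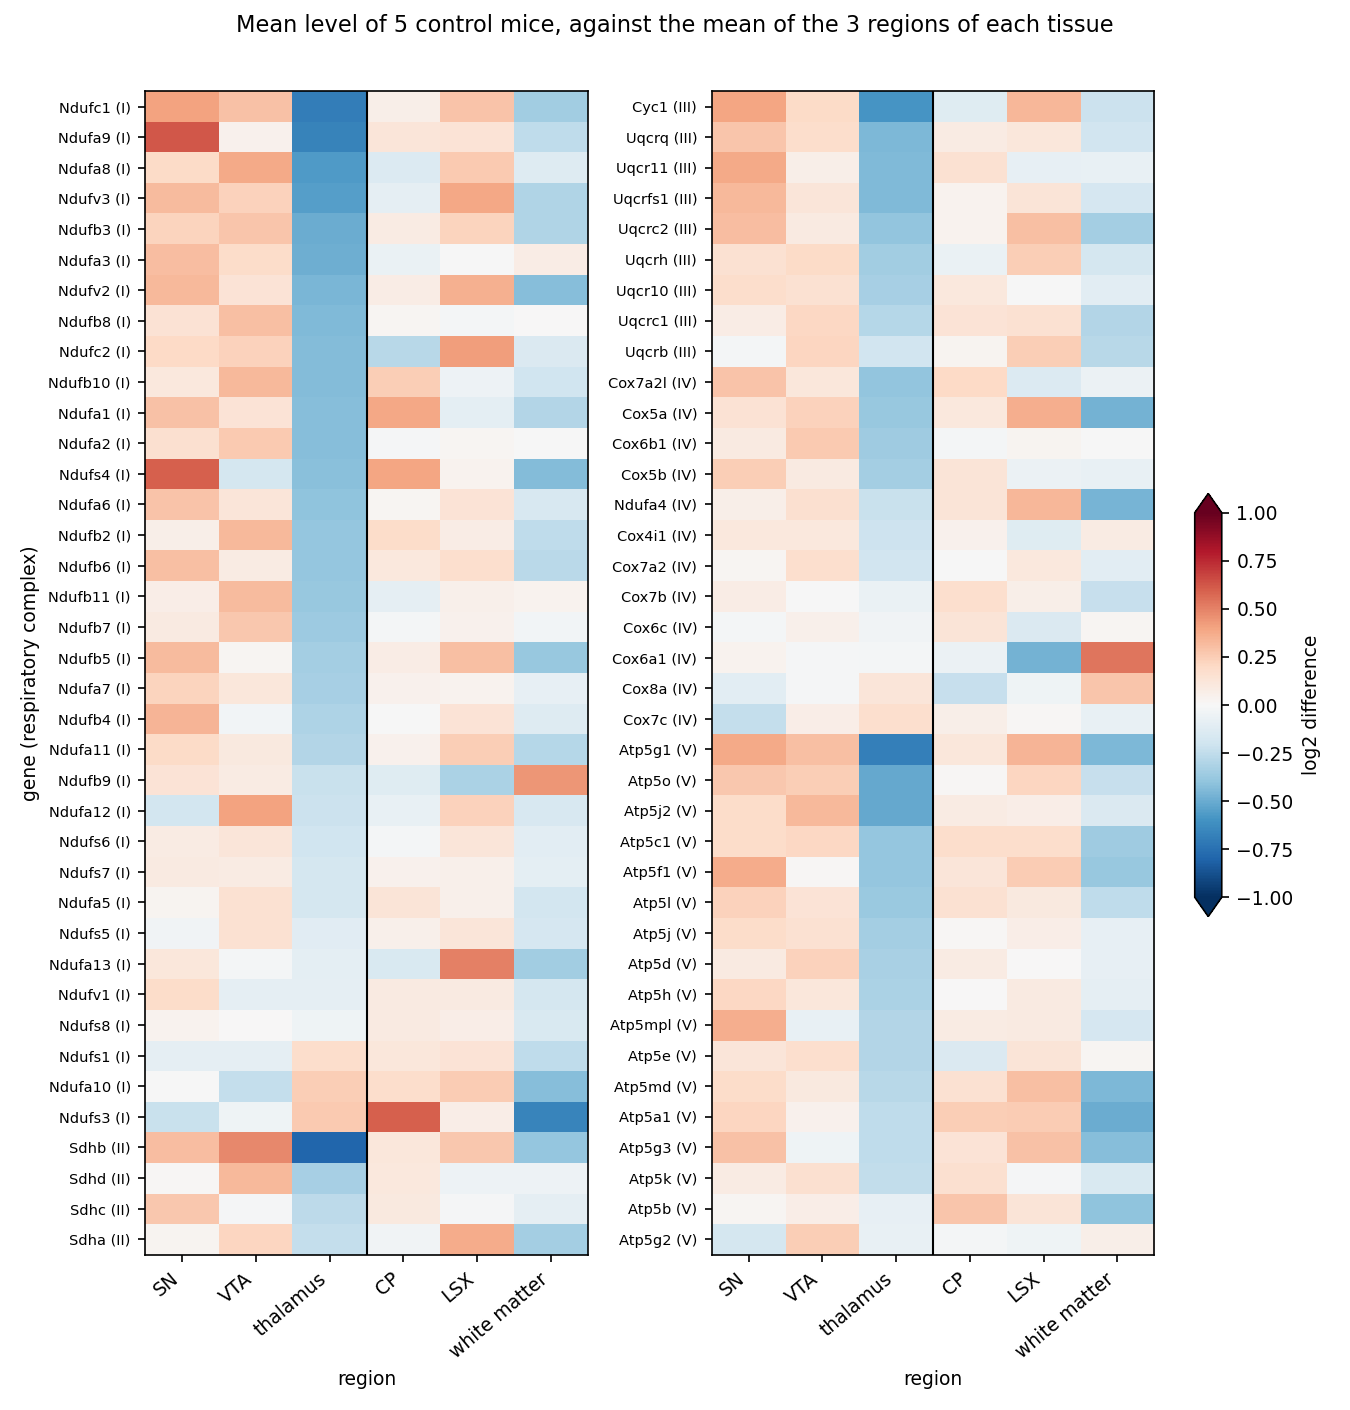
Mean level over the 5 control mice of 76 members with a mean of at least 0.25 in every region (rows, with their complex), as the log2 difference from the mean of the 3 regions of the same tissue (columns, colour). The thalamus column is low for most rows, and Cox6a1 and Ndufb9 stand out as high in white matter, where most other members are low.

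In the striatal sections the deeper columns resolved differences between individual members. Against white matter, 33 of 81 members were higher in the CP and 3 lower, and 32 of 79 were higher in the LSX and 3 lower. The background was high, at 26.1% of all genes higher and 14.5% lower for the CP, and 24.7% and 10.7% for the LSX, and the member medians of 0.25 and 0.31 lay close to the 0.21 and 0.28 of all genes. Members higher in the CP overlapped those higher in the LSX, 24 genes being shared (72.7% of the CP list and 75% of the LSX list), and both comparisons use the same white matter columns. TMM scaling kept the CP count (38 higher, 3 lower) and changed that of the LSX to 8 higher and 7 lower, with the median over all genes moving from 0.28 to 0.06.

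Ndufs3, a core subunit of the complex I peripheral arm, had the largest CP excess among abundant members. It was at 2.42, 3.83, 3.17, 2.40 and 3.10 in the CP of 802, 784, 785, C2W2 and C1W7, and at 0.823, 2.16, 1.70, 0.614 and 0.950 in their white matter (1.35 ± 0.16, adjusted p 1.5e-06 in limma), and it was higher in the CP in 8 of 8 mice when the GqCNO mice were counted. Ndufs4 (0.80 ± 0.14) and the alpha and beta subunits of the ATP synthase catalytic head, Atp5a1 (0.75 ± 0.09) and Atp5b (0.68 ± 0.09), followed, with Ndufa1 at 0.64 ± 0.13 (adjusted p 5.1e-04). In the LSX, Cox5a (0.86 ± 0.16), Ndufa13, also known as GRIM-19 (0.85 ± 0.13), Ndufs3 (0.84 ± 0.21), Ndufa4 (0.84 ± 0.14), Ndufv2 (0.79 ± 0.16) and Atp5g1 (0.79 ± 0.17) had the largest excess over white matter.

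A few members ran the other way. Cox6a1, the widely expressed form of a complex IV subunit, was at 8.17, 11.3, 10.6, 8.46 and 12.4 in the CP, 6.43, 7.35, 7.91, 7.74 and 8.82 in the LSX and 11.2, 17.8, 16.7, 12.2 and 19.2 in the white matter of the same control mice. White matter was the highest of the 3 in every mouse, GqCNO mice included. The CP differed from white matter by -0.58 ± 0.08 (adjusted p 2.0e-05) and the LSX by -0.98 ± 0.13 (adjusted p 5.2e-06). Ndufb9, a complex I accessory subunit, averaged 9.34 ± 1.66 (SD, n = 5) in white matter, 6.30 ± 1.04 in the CP and 5.50 ± 0.81 in the LSX (-0.56 ± 0.09 and -0.75 ± 0.12, limma adjusted p 5.6e-05 and 8.7e-05). Cox8a, a small complex IV subunit, was lower in the CP by -0.48 ± 0.09, and Cox6b2, a form known from testis, was lower in the LSX by -1.06 ± 0.39 (adjusted p 0.038), at a mean of 0.0123 against 0.0929. Cox6a1 and Ndufb9 were lower in both regions under TMM scaling as well.

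**Figure D4:**
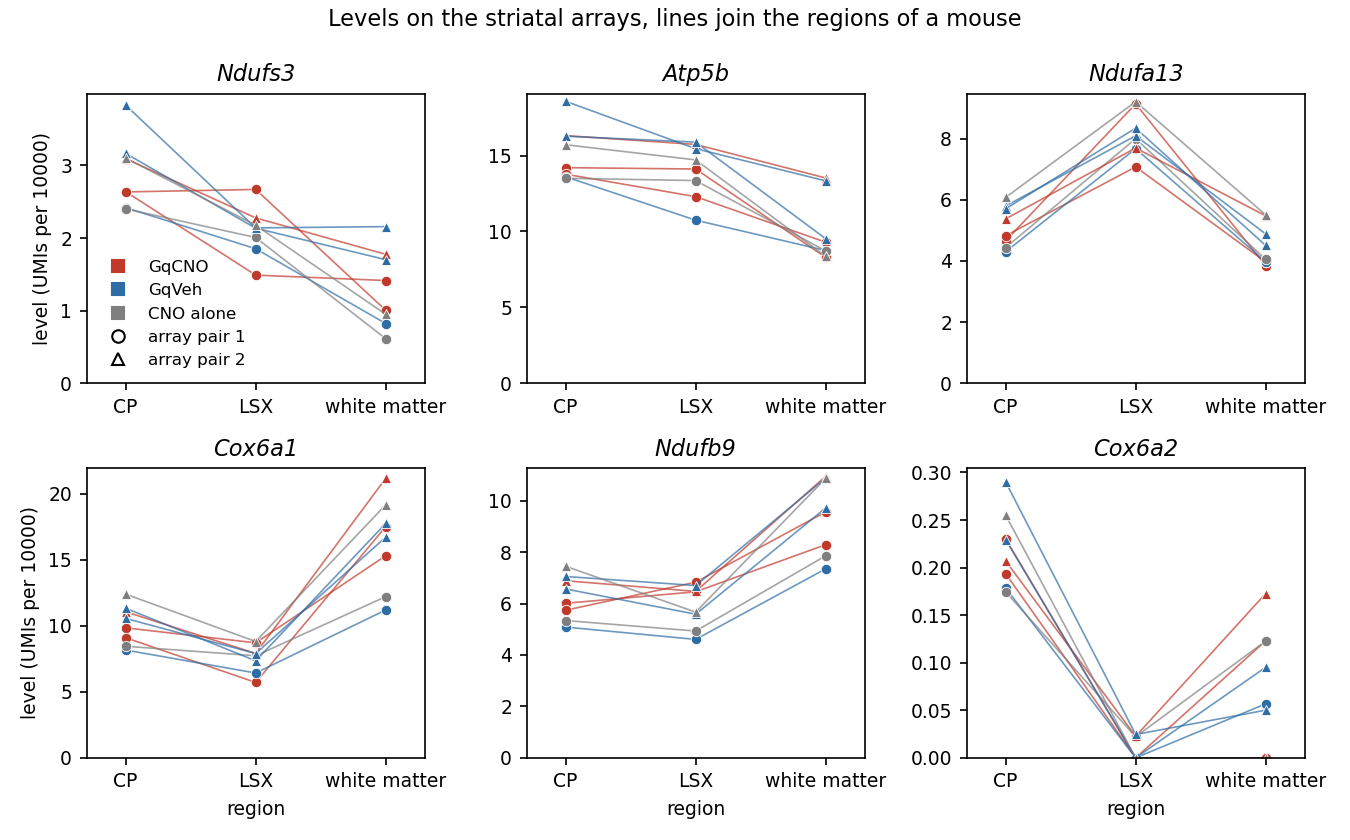
Level (y axis, UMIs per 10000) of 6 members in the CP, LSX and white matter. Each line joins the 3 regions of a mouse, coloured by group and marked by array pair; Ndufs3 and Atp5b are lowest in white matter in most mice, Cox6a1 and Ndufb9 peak there, Ndufa13 peaks in the LSX and Cox6a2 is highest in the CP.

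White matter columns also differed in how many other cells they took in. Oligodendrocyte markers summed to 413 to 944 there, against 54.0 to 81.4 in the CP and 9.64 to 33.7 in the LSX. Neuron markers summed to 21.4 to 66.7, against 63.3 to 69.4 in the CP and 88.3 to 101 in the LSX. The 2 white matter columns with the lowest oligodendrocyte marker levels were GqCNO 781 (478) and GqVeh 784 (413). They had the highest neuron marker levels (56.9 and 66.7) and the highest summed member levels (415 and 420.2). Both mice were on the second array pair, where 78 of 80 members were higher in white matter. The part of these other cells in the regional values was not tested.

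Between the CP and LSX, 2 regions rich in neurons, the members split. In the CP 9 of 80 were higher and 14 lower, beside 12.8% and 18.7% of all genes, with a median of -0.05 against -0.06 over all genes. Under TMM scaling the split was 19 higher and 2 lower, with the median over all genes at 0.13, and 33 of 80 members had positive values as scaled and 65 of 80 under TMM. The lower group was led by Ndufc2 (2.74 ± 0.44 in the CP and 4.44 ± 0.66 in the LSX, SD, n = 5, limma adjusted p 1.2e-04) and by Ndufa13, which was at 4.30, 5.80, 5.71, 4.44 and 6.08 in the CP and 7.67, 8.10, 8.35, 8.0 and 9.21 in the LSX, without overlap (-0.66 ± 0.08, adjusted p 6.4e-05). Ndufv3 (-0.48 ± 0.09), Cyc1 (-0.45 ± 0.08), Ndufa8 (-0.40 ± 0.08) and Sdha (-0.37 ± 0.09) followed. On the higher side were Ndufs3 (0.50 ± 0.09), Ndufa1 (0.44 ± 0.10), Cox6a1 (0.40 ± 0.08) and Ndufs4 (0.34 ± 0.11), together with 2 isoforms of complex IV subunits described next.

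Several complex IV subunits exist in pairs, with a widespread form and a form known best from muscle, lung or testis. Cox6a2, the form known from heart and skeletal muscle, was at 0.179, 0.229, 0.290, 0.174 and 0.255 in the CP of the control mice and between 0 and 0.0246 in their LSX (2.22 ± 0.22, adjusted p 2.3e-05 in limma). It was also above white matter (1.36 ± 0.32, adjusted p 0.0025). Over all 8 mice, 967 Cox6a2 UMIs were counted in the CP, 7 in the LSX and 19 in white matter, and Cox6a2 made up 1.84 to 2.67% of the Cox6a1 and Cox6a2 UMIs in the CP, at most 0.310% in the LSX and at most 0.995% in white matter. The share was higher in the CP in 8 of 8 mice against each of the other regions (exact sign-flip permutation test, two-sided p = 0.0078, the smallest that 8 mice allow, adjusted p 0.033 over 15 share tests). The share comparison does not depend on how the columns are scaled. Among the isoform pairs only the Cox6a2 share was tested. The mice included the controls in which its level had been called, so the test is not independent of that result. Cox4i2, the form known from lung, was likewise higher in the CP than in the LSX (1.16 ± 0.25, adjusted p 0.0043), with 391 against 8 UMIs, and made up 0.371 to 0.556% of the COX4 UMIs in the CP. In the LSX both isoforms lay at or below the level of a few UMIs per mouse. The midbrain columns were shallower, and there the shares overlapped those of the CP and were not tested against them. Cox6a2 made up 0 to 4.59% of its pair in the VTA (median 0.994%, 14 UMIs) and 0 to 2.54% in the thalamus (median 1.21%, 37 UMIs), and Cox4i2 made up 0 to 1.88% in the thalamus (median 0.816%, 30 UMIs). Cox8b, the muscle form of Cox8a, was counted 58 times in the CP against 55811 UMIs of Cox8a, and Cox7a1 98 times against 25059 of Cox7a2.

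The c subunit of the ATP synthase rotor is encoded by 3 genes, Atp5g1, Atp5g2 and Atp5g3, whose mature proteins are identical and whose import sequences differ. Their shares of the combined UMIs, taken over all mice with GqCNO included, shifted between regions. Atp5g2 made up 20.7 to 22.5% in the CP, 15.6 to 25.6% in the LSX and 23.7 to 35.3% in white matter, and was higher in white matter than in the CP in 8 of 8 mice (mean difference 8.41 percentage points, SD 4.63, exact sign-flip permutation test, adjusted p 0.033). Atp5g3 made up 41.4 to 44.5% in the CP and 30.4 to 42.8% in white matter, higher in the CP in 7 of 8 mice (exact permutation test, adjusted p 0.033). In the midbrain, Atp5g3 made up 44.7 to 56.4% in the thalamus and 26.8 to 44.4% in the VTA, lower in the VTA in 7 of 7 mice (SD of the difference 7.66 percentage points, exact permutation test, adjusted p 0.033). Atp5g1 took a larger share in the VTA than in the thalamus in 6 of 7 mice (mean difference 9.03 points, exact permutation test, adjusted p 0.047). Between the CP and LSX no c subunit share passed (Atp5g1 -3.84, Atp5g2 3.55 and Atp5g3 0.29 points, adjusted p 0.081, 0.064 and 0.71 in the exact permutation test).

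The nuclear-encoded sum could also be set against the 13 subunits encoded in mitochondrial DNA, within the same column, which removes the effect of scaling. All mice were used here, GqCNO included. The ratio of the mitochondria-encoded to the nuclear-encoded sum ran from 1.86 to 3.36 in the SN (median 2.73), 2.04 to 4.03 in the VTA (2.57), 3.25 to 8.85 in the thalamus (4.03), 3.79 to 5.25 in the CP (4.56), 3.02 to 4.39 in the LSX (3.27) and 2.15 to 4.33 in white matter (3.62). It was higher in the CP than in the LSX in 8 of 8 mice (log2 difference 0.37, SD 0.16) and higher than in white matter in 8 of 8 (0.46, SD 0.32), each with p = 0.0078 in the exact sign-flip permutation test and adjusted p 0.023 over 6 region pairs. It was lower in the SN than in the thalamus in 7 of 7 mice (-0.77, SD 0.58, exact permutation test, adjusted p 0.031) and lower in the VTA in 6 of 7 (-0.74, SD 0.62, adjusted p 0.047). The SN and VTA did not separate (3 of 8 mice higher, exact permutation test, adjusted p 0.70), nor did the LSX and white matter (4 of 8 higher, adjusted p 0.59). The 8.85 in the thalamus came from CNO alone mouse C1W7, whose mitochondria-encoded sum was 2448, against 1196 to 1429 in the other 6.

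**Figure D5:**
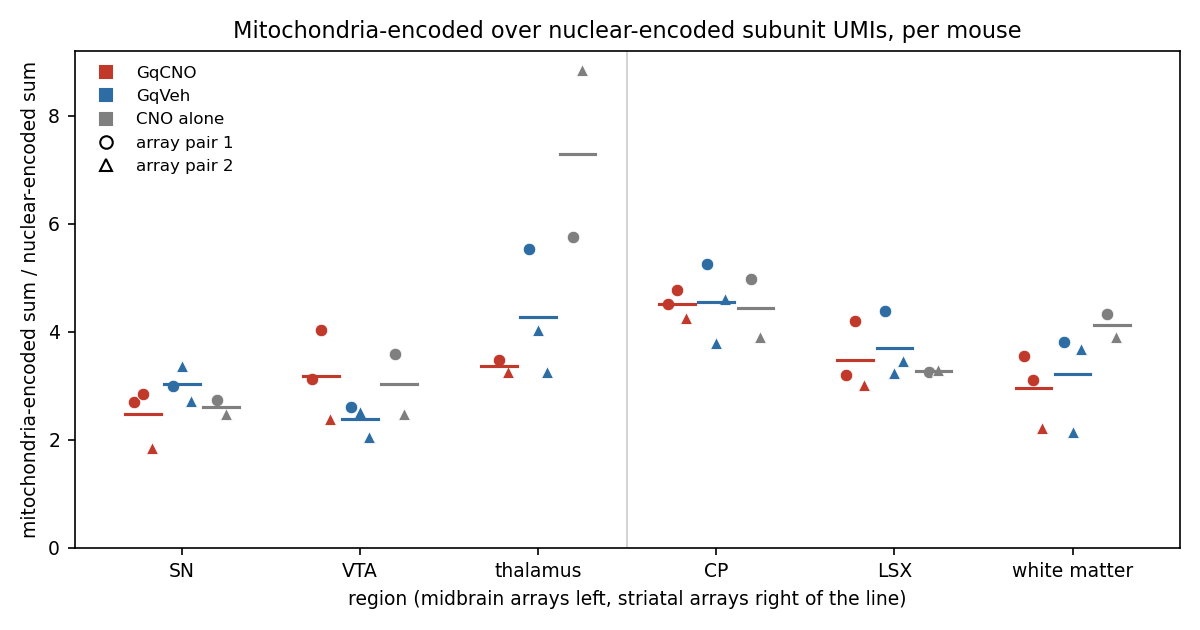
Ratio of summed mitochondria-encoded to summed nuclear-encoded subunit UMIs (y axis) by region (x axis), with a symbol per mouse coloured by group and shaped by array pair, and bars at group means. The CP lies at 3.79 to 5.25 and the SN at 1.86 to 3.36, and the highest point is CNO alone mouse C1W7 in the thalamus at 8.85.

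Nuclear respiratory genes are known to share promoter elements for the factors NRF1, NRF2 (an ETS factor, GABPA) and YY1, and the members' promoters were searched for them. Promoter sequences (RefSeq, GRCm38.p6, 250 bases before to 50 after the start) were matched for 68 of the 85 members. On either strand, 26 of 68 members (38.2%) held the NRF1 letters CGCANGCG, against 9.22% of 27025 genes with a promoter. YY1 letters (AANATGGCG) were in 10 of 68 (14.7% against 2.76%) and ETS letters (CCGGAAGT) in 5 (7.35% against 4.31%), and 32 members held none of the 3. Matches of different motifs can overlap, and a gene may hold more than 1. Of members described above, Sdhb, Ndufa13 and Cox5a are among those without a match. The windows of Ndufa13 and Cox5a lie inside the span listed for each gene, so the outermost start of each was not searched. Cox6a1, high in white matter, has a pair of NRF1 matches, Ndufs3, low there, an ETS match, Atp5b a YY1 match, and Atp5g1, among the highest over the thalamus, has none. They are shown 5′ to 3′ on the strand of the gene with matches in capitals, for Cox6a1 at chr5:115348909-115349208 (minus strand), Ndufs3 at chr2:90904672-90904971 (minus), Atp5b at chr10:128083057-128083356 (plus) and Atp5g1 at chr11:96075582-96075881 (minus).
Cox6a1: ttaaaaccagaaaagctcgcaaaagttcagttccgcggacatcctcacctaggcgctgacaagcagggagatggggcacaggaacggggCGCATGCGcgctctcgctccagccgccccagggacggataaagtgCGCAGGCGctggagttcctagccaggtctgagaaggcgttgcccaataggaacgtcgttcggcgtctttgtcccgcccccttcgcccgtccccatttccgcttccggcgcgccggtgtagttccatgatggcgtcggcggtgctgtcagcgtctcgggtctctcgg
Ndufs3: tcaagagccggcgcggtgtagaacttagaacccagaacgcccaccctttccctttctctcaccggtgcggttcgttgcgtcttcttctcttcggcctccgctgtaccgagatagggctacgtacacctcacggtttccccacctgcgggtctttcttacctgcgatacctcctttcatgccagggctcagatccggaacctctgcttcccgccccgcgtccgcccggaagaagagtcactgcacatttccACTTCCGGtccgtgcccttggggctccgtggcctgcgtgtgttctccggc
Atp5b: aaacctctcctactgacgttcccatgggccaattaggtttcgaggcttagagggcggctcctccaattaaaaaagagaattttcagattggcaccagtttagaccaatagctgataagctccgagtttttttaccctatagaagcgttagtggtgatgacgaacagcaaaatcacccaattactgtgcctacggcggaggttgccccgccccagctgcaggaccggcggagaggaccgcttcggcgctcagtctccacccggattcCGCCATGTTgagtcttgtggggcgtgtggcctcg
Atp5g1: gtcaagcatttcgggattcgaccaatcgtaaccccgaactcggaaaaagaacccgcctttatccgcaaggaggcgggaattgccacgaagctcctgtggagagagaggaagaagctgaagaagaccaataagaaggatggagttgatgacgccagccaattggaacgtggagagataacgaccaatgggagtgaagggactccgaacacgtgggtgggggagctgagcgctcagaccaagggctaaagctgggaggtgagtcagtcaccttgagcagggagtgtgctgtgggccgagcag
A match to these letters is a description of the sequence and was not related to any of the measured differences.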

How the data were processed

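Spatial transcriptomes of 8 mice were on 4 Visium arrays, 2 of the midbrain and 2 of the striatum. Per the labels and methods, the authors ran Space Ranger against mm10, selected discs in Loupe Browser and deposited 1 average signal per gene for each of 47 mouse and region columns, scaled to a common total within an array. All low values were whole multiples of 1 UMI within 0.05 steps, so UMIs were recovered and each column was rescaled to 10000. Genes whose mean level reached 0.25 on midbrain or 0.05 on striatal arrays were tested on log2(level + 0.5) or log2(level + 0.05) with limma 3.58.1 in R 4.3.3, with p-values adjusted (Benjamini-Hochberg) over all genes tested. A fold change on this scale understates that of low genes. Group comparisons used all mice of a region, and region comparisons of gene levels used differences within the 5 control mice. Region tests of the Cox6a2 share, the c subunit shares and the mitochondria-encoded to nuclear-encoded ratio used all 7 or 8 mice, GqCNO included. edgeR 4.0.16 on recovered UMIs, other scalings, constants and filters, the array pair as a block and leaving out each mouse were alternatives. The fits for the VTA and CP groups, VTA against thalamus and CP against white matter were tested on simulated counts. The planted changes were larger than most differences given here, and no array or mouse effect was simulated.

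The members and lists were chosen with earlier results of these data known. Genes are named where called (the 6 largest per direction between regions), where among the 4 smallest p per direction between groups, as core subunits or as isoform pairs. Each mouse is a separate animal, and sections of a mouse share it. All columns were used. Protein sequences are not analysed here, and values of 1 member are not reported here.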

Additional observations from a re-analysis of the deposited data

Results flagged for a closer look

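In the thalamus, the summed level of the mitochondria-encoded subunits stood apart in 1 of the 5 control mice: it was 2448 in CNO alone mouse C1W7, against 1250, 1429 and 1384 in the GqVeh mice and 1245 in the other CNO alone mouse. The gap to the nearest mouse, divided by the whole range, was 0.847, above the 0.71 that Dixon's test allows for 5 values. Of 42 groups of 5 tested in this way this was the only case. Each group passes by chance about 1 time in 20, so 1 case among 42 is not more than chance gives. The nuclear-encoded sum of that column, 277, lay between those of the other controls but was the lowest of the mice on the second array pair.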

How the results depend on the processing

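The finding of no called member held in the group comparisons under all alternatives except leaving out a mouse. The count ranged from 0 to 1 in the SN for GqCNO against controls (Ndufb11 without GqCNO 781, Ndufa5 without GqVeh 784) and from 0 to 1 in the thalamus for GqCNO against CNO alone (Sdhb without C1W7). The SN median of -0.08 was -0.35 with TMM scaling, -0.29 with edgeR, -0.27 without the 3 mice under 15000 UMIs and 0.18 within array pair 2. For the difference in response, TMM gave a median of -0.13 for SN minus VTA, and VTA minus thalamus had 1 called member with the higher constant and 0 to 10 when a mouse was left out.

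Counts between regions depended more on the processing. SN over thalamus (12) became 0 with TMM, 3 with edgeR and 5 to 38 when a mouse was left out. VTA over thalamus (34) became 5 with TMM, 19 with all mice and 14 to 49 with a mouse left out, and 1 member was lower with all mice and with mitochondria-encoded genes left out of the total. CP against LSX (9 higher, 14 lower) gave 19 and 2 with TMM (median 0.18), 17 and 5 with edgeR (median 0.074), 26 lower with all mice, and 5 to 10 higher and 8 to 25 lower with a mouse left out. CP against white matter gave 21 higher and 5 lower with edgeR (median 0.11) and 5 lower with all mice. LSX against white matter gave 8 higher and 7 lower with TMM (median 0.023), and 11 and 8 with edgeR (median 0.045). The SN minus VTA median was -0.23 with TMM. The cause was not tested.

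For 42 named gene and region pairs, 509 of 537 alternatives kept direction and call, 28 lost the call and none reversed. With the array pair as a block no member was called between groups, but the CP median turned positive. Treatment groups could not be compared in pairs, because the labels pair no mice between them. No test compares midbrain with striatal arrays. The groups of 2 or 3 mice and the SN depth limit what could be detected, and other alternatives chosen after seeing the data were the total without mitochondria-encoded genes, the array pair comparison and the values within an array pair.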
